A study of Arabidopsis thaliana with 12 samples.

Results

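Transcripts of 5 nuclear genes of the photosynthetic apparatus were examined in Arabidopsis thaliana: PSAN (AT5G64040) of photosystem I, LHB1B2 (AT2G34420) of the light-harvesting antenna, and PSBW (AT2G30570), PSBY (AT1G67740) and PSB27 (AT1G03600) of photosystem II. They were taken by name, as genes of these complexes that the platform annotation gives to a probe naming 1 gene, and each was on 1 probe. They were 5 of 692 probes with 1 named gene, on arrays of 3439 probes. Transcript levels were compared between psaf, an antisense line in the Columbia 0 ecotype that lacks the photosystem I protein PSI-F, and wild type Columbia 0 (WT). The labels call psaf both an antisense line and a mutant, and the sources used here give neither the promoter of the construct nor the number of lines behind it. Total RNA was read on 6 one-channel arrays of psaf and 6 of WT, numbered 1 to 6 in each. The sources used here do not give the tissue, plant age or growth conditions.

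Photosystem II takes electrons from water and photosystem I passes them on to ferredoxin, with plastoquinone, the cytochrome b6f complex and plastocyanin between them. PSI-F lies on the lumenal side of photosystem I, where plastocyanin docks, and PSI-N, the product of PSAN, is a lumenal subunit on the same side. LHB1B2, also named LHCB1.5, encodes a chlorophyll a/b protein of the main antenna, LHCII. PSBW and PSBY encode small membrane proteins of photosystem II, and PSB27 encodes a lumenal factor of its assembly and repair. PSAF itself, against which the antisense construct is directed, was not analysed here since no probe names it alone, and this leaves the genotype labels unchecked.

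The summed intensity of an array was 3563 to 3745, and the 5 probes were measured on all 12 arrays. Intensities are the authors' normalised values on a linear scale, and the sources used here do not say how that was done. The median probe was at 0.416 to 0.459 on psaf arrays and at 0.536 to 0.569 on WT arrays. Over the 3277 probes tested, the median log2 difference, psaf minus WT, was -0.29. Arrays numbered 1 with 2, 3 with 4 and 5 with 6 formed close pairs in both genotypes, all 12 arrays having their partner as the nearest array. Each pair was counted as 1 sample, so means ± SD are over 3 pair means per genotype. Nothing in the labels ties arrays to separate plants, so a p-value here reflects the spread between samples that may be technical repeats. Fewer cells that express a gene and less RNA per cell cannot be told apart in such samples.

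Of the 5 genes, PSBW was higher in psaf and the other 4 did not pass the test (limma, adjusted p under 0.05 over all probes). Among all probes tested 38.6% passed, 4.76% higher and 33.8% lower in psaf. With the 12 arrays fitted singly PSBY passed as well, which made 2 of 5 genes higher, against 10.9% of all probes. With tested probes ranked into 10 brightness classes, all 5 lay in the brightest class of 328 probes, where the median log2 difference was 0.19 and not -0.29. In that class 23.5% of probes passed as higher in psaf and 15.9% as lower. The balance of higher and lower calls over all probes moved with the scaling of the arrays, from 156 higher and 1108 lower on the deposited scale to 425 and 331 after median centring, 278 and 423 after quantile normalisation and 355 and 405 after cyclic loess.

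**Figure D1:**
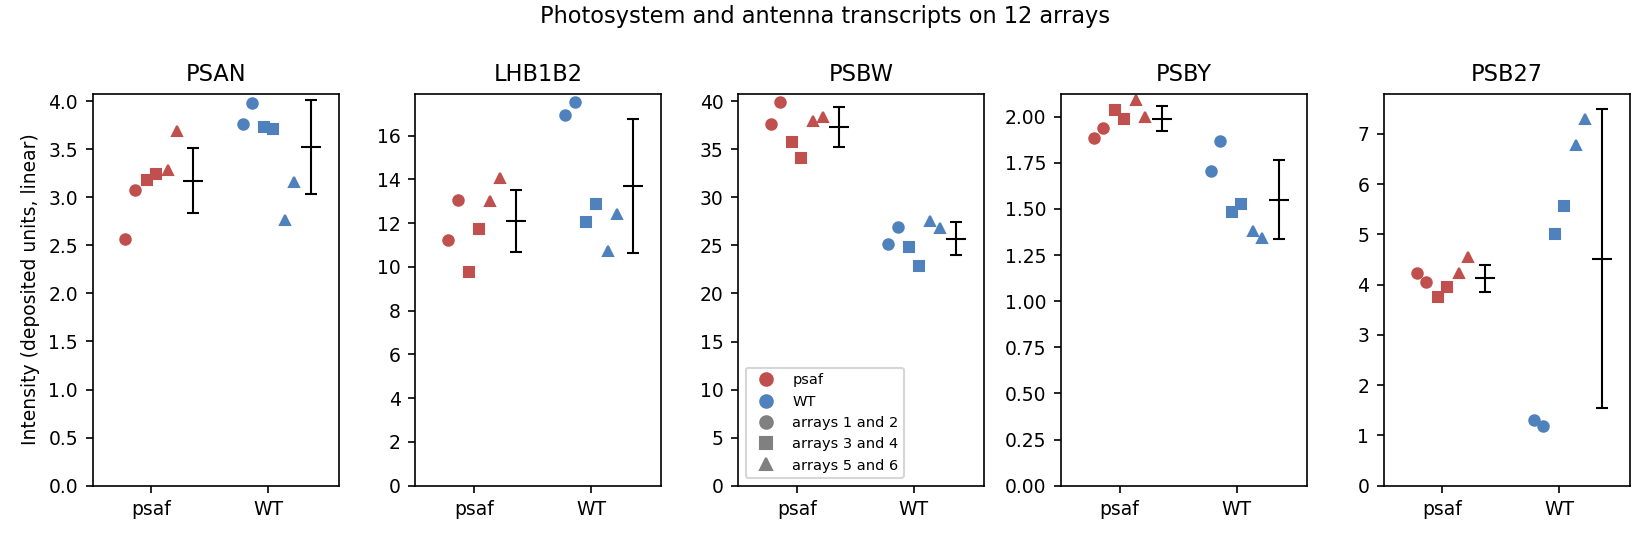
Intensity (deposited units, linear axis from 0) of the 5 probes on each of 6 psaf and 6 WT arrays, with symbols for the close pairs and black bars for the mean ± SD of 3 pair means. PSBW and PSBY lie higher on every psaf array than on any WT array, and PSB27 is at 1.3 and 1.19 on WT arrays 1 and 2.

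PSBW encodes PsbW, a single-span protein that in Arabidopsis helps hold photosystem II and its antenna together in supercomplexes. Its probe read 34.1, 37.8 and 40.0 on the lowest, median and highest psaf arrays, against 22.9, 26.0 and 27.5 on WT arrays. The genotypes did not overlap, as for 6.71% of all probes, which lay higher on all 6 psaf arrays. That share is over probes of every brightness and was not computed within the brightest class. The mean was 37.3 ± 2.06 in psaf and 25.7 ± 1.7 in WT (SD, n = 3), a fold of 1.45 and a log2 difference of 0.54 ± 0.11 (SE, limma adjusted p = 0.0109). Its share of the summed intensity was 1.03% ± 0.058 on psaf arrays and 0.699% ± 0.05 on WT arrays (SD, n = 3). Within the brightest class 77.1% of probes had a smaller log2 difference than PSBW, and over all probes 93.5% did. The call ended after quantile normalisation (log2 difference 0.17, adjusted p = 0.333), cyclic loess (0.15, adjusted p = 0.367) and a correction for neighbouring probe numbers (0.27, adjusted p = 0.333), and the difference was 0.89 after median centring. By probe number, PSBW lay at the edge of a run of probes that read low on WT arrays 1 and 2. The nearest tested probes below it, at offsets of -3 and -2, deviated by -2.15 to -1.57 log2 from their WT medians there, those above it, at 1 and 2, by 0.00274 to 0.187, and PSBW itself by -0.05 and 0.05. The neighbour correction of PSBW takes its median over both sides of that edge.

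PSBY encodes a precursor that is cut into small membrane proteins found at the edge of photosystem II. PSBY read 1.88, 1.99 and 2.09 on the lowest, median and highest psaf arrays, against 1.34, 1.5 and 1.87 on WT arrays. The genotypes again did not overlap, but WT arrays 1 and 2, at 1.70 and 1.87, came close to the psaf arrays. The mean was 1.99 ± 0.0698 in psaf and 1.55 ± 0.215 in WT (SD, n = 3), a log2 difference of 0.37 ± 0.13 (SE, limma adjusted p = 0.0655). The 4 nearest probe numbers also read high on WT arrays 1 and 2, by a median of 0.21 and 0.32 log2. Without those arrays the PSBY difference was 0.475 (adjusted p = 0.0269), where 4.91% of all probes passed as higher. PSBY also passed with 12 arrays fitted singly (adjusted p = 0.00186), after median centring (0.72, adjusted p = 0.0206) and after cyclic loess (0.45, adjusted p = 0.0417). There 10.9%, 13% and 10.8% of all probes passed as higher, against 4.76% in the main fit. Its difference was above 0 under the 23 alternatives of 29 that change the estimate, and the other 6 leave it as it is.

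PSB27 read 3.75, 4.14 and 4.55 on the lowest, median and highest psaf arrays, against 1.19, 5.29 and 7.30 on WT arrays. The 6 psaf arrays fell inside the WT range, between WT arrays 1 and 2, at 1.3 and 1.19, and the other WT arrays, at 5.02 to 7.30. The mean was 4.13 ± 0.271 in psaf and 4.52 ± 2.97 in WT (SD, n = 3), and the log2 difference of 0.20 ± 0.61 (SE) did not pass (limma adjusted p = 0.816). The means of linear values put PSB27 lower in psaf and the means of log2 values put it higher, with WT arrays 1 and 2 at a pair mean of 1.24. The 95% interval of the log2 difference, -1.3 to 1.7, leaves the direction unsettled. The coefficient of variation between pair means was 6.57% in psaf and 65.7% in WT, the widest WT spread of the 5 genes.

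The low PSB27 values were shared with the probes numbered around it. On WT array 1 the 6 tested probes from 1 number below PSB27 to 4 above it lay -2.42 to -1.87 log2 from their WT medians, and on WT array 2 they lay at -2.57 to -2.11. The same probes lay between -0.474 and 0.775 on the other 10 arrays. The tested probes just outside the run, at offsets of -4 and 5, were at -0.129 to 0.314 on WT arrays 1 and 2, so the run had sharp ends. Over all tested probes 6.63% and 6.35% lay more than 1 log2 below their WT median on these arrays, against 0.214% to 2.60% on the other 4 WT arrays. The sources used here do not give the place of the probes on the array, and the part of the run in the PSB27 result was tested only by leaving arrays out and by the neighbour correction. PSB27 was lower in psaf when WT arrays 1 and 2 were left out, with -0.565 log2 (limma adjusted p = 0.0355), where 32.9% of all probes passed as lower. The neighbour correction also made PSB27 lower in psaf (-0.392, adjusted p = 0.0404), where 49.1% of all probes passed as lower. That correction uses deviations from each genotype's own median, so it acts on spread within a genotype. In either direction 57.9% of all probes passed under it, against 38.6% in the main fit.

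**Figure D2:**
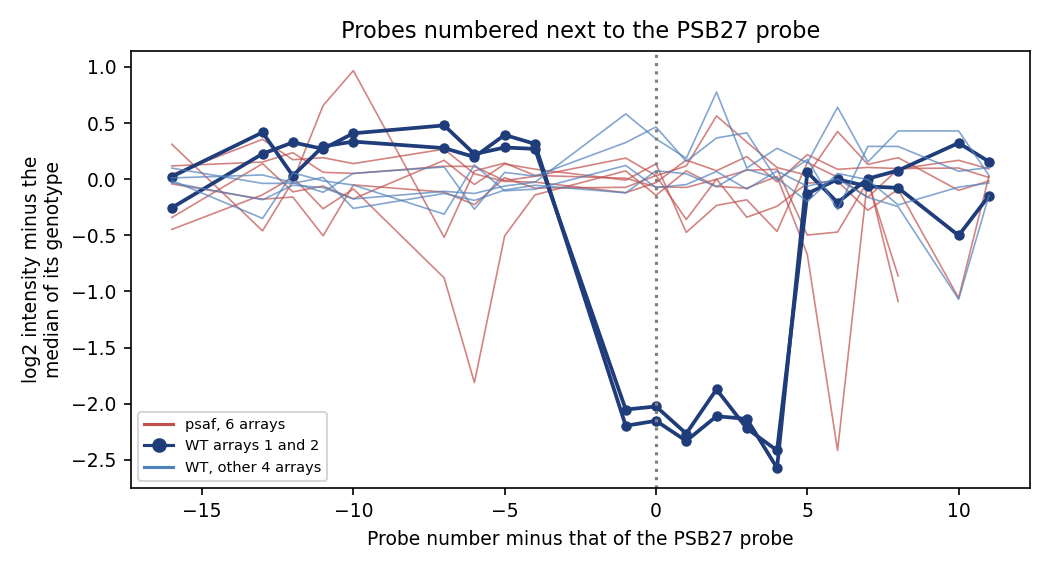
Deviation of each array from its genotype's median (log2, vertical axis) for 21 tested probes around PSB27, by probe number relative to the PSB27 probe (horizontal axis). WT arrays 1 and 2 drop by about 2 log2 units over 6 probes, from -1 to 4, and lie near 0 on both sides.

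Photosystem I was represented by PSAN. PSAN read 2.57, 3.21 and 3.69 on the lowest, median and highest psaf arrays, against 2.77, 3.72 and 3.98 on WT arrays. The genotypes overlapped, with psaf array 1 the lowest of all and WT arrays 5 and 6, at 2.77 and 3.16, below the other WT arrays. The 4 nearest probe numbers were low on WT arrays 5 and 6 too, by medians of -0.257 and -0.174 log2. The mean was 3.17 ± 0.338 in psaf and 3.52 ± 0.488 in WT (SD, n = 3), and the log2 difference of -0.15 ± 0.15 (SE) did not pass (limma adjusted p = 0.469). Its 95% interval, -0.51 to 0.21, takes in a fall or a small rise. Median centring gave 0.205, so the sign depends on the scaling.

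The antenna was represented by LHB1B2. LHB1B2 read 9.75, 12.4 and 14.1 on the lowest, median and highest psaf arrays, against 10.7, 12.6 and 17.5 on WT arrays. WT arrays 1 and 2, at 16.9 and 17.5, stood above all others, and the other 4 WT arrays lay within the psaf range. The mean was 12.1 ± 1.41 in psaf and 13.7 ± 3.06 in WT (SD, n = 3), with a log2 difference of -0.17 ± 0.18 (SE, limma adjusted p = 0.501, 95% interval -0.61 to 0.27). LHB1B2 too lay at the edge of a low run on those arrays. The nearest tested probes below it, at offsets of -3 and -2, deviated by -2.42 to -1.73 log2 from their WT medians there. Those above it, at 1 to 4, lay on the high side like LHB1B2, by 0.043 to 0.491, against 0.421 and 0.472 for LHB1B2 itself. The neighbour correction gave a LHB1B2 difference of -0.423 (limma adjusted p = 0.367). Its median, -0.842 and -0.866 on WT arrays 1 and 2, was taken over both sides of that edge. It therefore cannot show the part of this neighbourhood in the LHB1B2 values, which was not tested in another way by probe number. Leaving out WT arrays 1 and 2 gave a LHB1B2 difference of 0.00853 (adjusted p = 0.971). Median centring gave 0.185, while quantile normalisation gave -0.516 (adjusted p = 0.081) and cyclic loess -0.472 (adjusted p = 0.0897). LHCB1 genes are near-identical in their coding sequence. The annotation names LHB1B2 alone for this probe, and hybridisation of other LHCB1 transcripts to it was not tested.

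**Figure D3:**
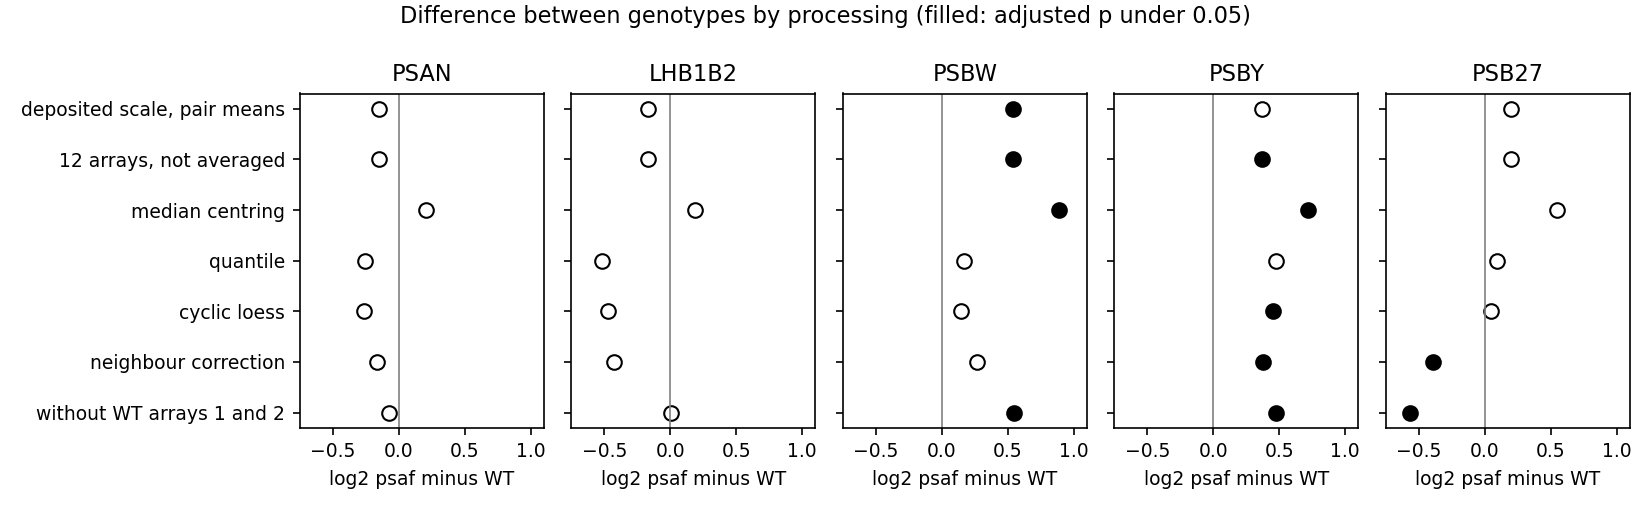
Log2 difference, psaf minus WT (horizontal axis), of the 5 genes under 7 ways of processing; filled circles passed limma at an adjusted p under 0.05. PSBW and PSBY stay above 0 throughout, and PSAN and LHB1B2 change sign with median centring. Without WT arrays 1 and 2 LHB1B2 is also just above 0 (0.00853). PSB27 falls below 0 without WT arrays 1 and 2 and after the neighbour correction.

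Brightness ranks within an array do not change when an array is scaled as a whole. They order probes, whose brightness also depends on the probe, and so are set here between genotypes for the same probe. PSBW held ranks 8 to 12 of the tested probes on psaf arrays and 11 to 14 on WT arrays, among the brightest few in both. Among probes with 1 gene its rank was 3 to 4 in psaf and 4 to 5 in WT. LHB1B2 held ranks 27 to 39 on psaf arrays and 19 to 26 on WT arrays, so it ranked dimmer on every psaf array, as did 16.6% of all probes. PSBY held ranks 251 to 299 on psaf arrays and 319 to 536 on WT arrays, and it ranked brighter on every psaf array, as did 13.9% of all probes. Both shares are over probes of every brightness and were not computed within the brightest class. The ranks of PSAN overlapped, at 138 to 208 in psaf and 109 to 178 in WT. PSB27 held ranks 101 to 134 on psaf arrays. On WT arrays 3 to 6 it ranked higher, at 49 to 77, and on WT arrays 1 and 2 it was at 554 and 651.

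**Figure D4:**
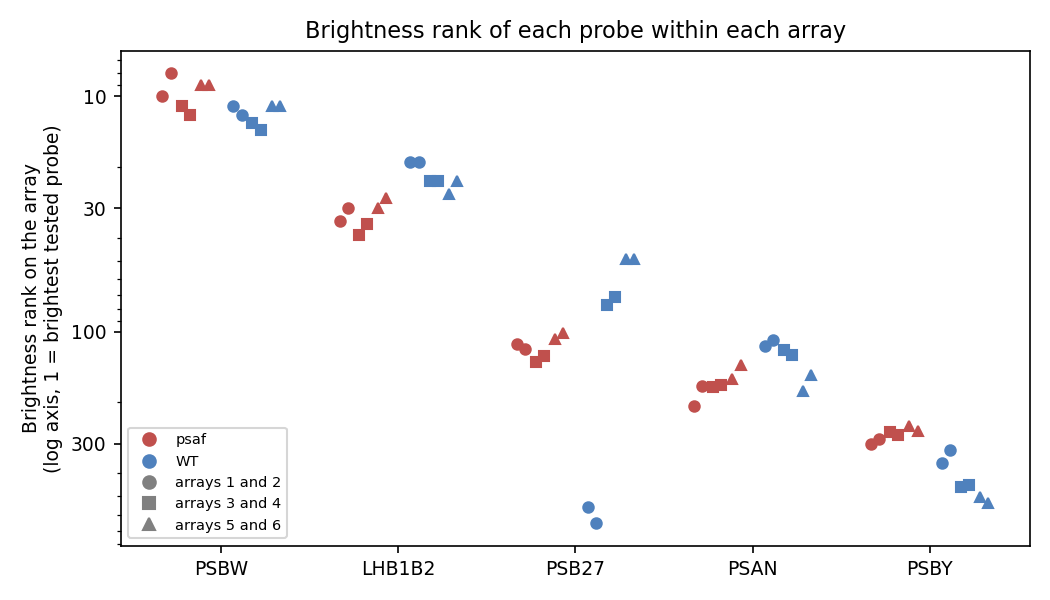
Brightness rank of each probe among tested probes (log axis, 1 is the brightest) on 6 psaf and 6 WT arrays, with symbols for the close pairs. PSBY ranks brighter and LHB1B2 dimmer on every psaf array, and the ranks of PSBW, PSAN and PSB27 overlap.

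The balance of photosystem I, photosystem II and antenna transcripts was measured as the ratio of 2 probes on the same array, which whole-array scaling cannot change. Such a ratio is not a ratio of transcript numbers, and only its change between genotypes is read. All 10 ratios among the 5 genes were computed. The photosystem II genes PSBW and PSBY stood higher against both PSAN and LHB1B2 in psaf on every array. PSB27, also of photosystem II, overlapped between genotypes against both, as did LHB1B2 against PSAN. None of the 10 ratios passed limma at an adjusted p under 0.05 over all probes. At an unadjusted p under 0.05 there were 3 of 10, where 20.4% to 75% of all probes were under it, depending on the gene in the denominator. With the close pair as a random block 1 of 10 passed, PSBW to PSAN, where 13.4% of all probes passed relative to PSAN. Over 12 arrays fitted singly 4 of 10 passed, PSBW and PSBY each to PSAN and to LHB1B2. That fit takes the arrays of a close pair as independent, although their estimated correlation was 0.76. In it 37.1% of all probes passed relative to PSAN, 29% to LHB1B2, 82.2% to PSBW and 74.5% to PSBY.

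The ratio of PSBW to PSAN was 10.4 to 14.7 on psaf arrays, against 6.16 to 9.95 on WT arrays. It differed by 0.68 ± 0.23 log2 (SE, limma adjusted p = 0.0974, unadjusted p = 0.0137). PSBY to PSAN ran from 0.543 to 0.734 on psaf arrays and from 0.398 to 0.498 on WT arrays, a difference of 0.51 ± 0.2 log2 (adjusted p = 0.14). Neither ratio overlapped between genotypes, and 4.98% of all probes likewise had a ratio to PSAN that was higher on all 6 psaf arrays. Shares for ratios are over probes of every brightness and were not computed within the brightest class. The median log2 difference was 0.19 in that class and -0.29 over all probes, so these shares may be higher among equally bright probes. Relative to PSAN, 7.11% of all probes passed.

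Against the antenna gene, too, both stood higher on psaf arrays. PSBW to LHB1B2 was 2.73 to 3.67 on psaf arrays, against 1.49 to 2.57 on WT arrays, a difference of 0.70 ± 0.27 log2 (SE, limma adjusted p = 0.166). PSBY to LHB1B2 was 0.142 to 0.209 on psaf arrays, against 0.101 to 0.129 on WT arrays, a difference of 0.54 ± 0.25 log2 (adjusted p = 0.254). Both ratios were higher on all 6 psaf arrays, as for 4.49% of all probes, and 1.37% of probes passed relative to LHB1B2. These ratios share their denominators, and PSBW and PSBY share the arrays, so they are not separate pieces of evidence. Of the 29 alternatives 22 change these estimates, and under those the differences stayed above 0, at 0.411 to 0.846 for PSBW to PSAN, 0.453 to 0.735 for PSBY to PSAN, 0.54 to 0.862 for PSBW to LHB1B2 and 0.44 to 0.995 for PSBY to LHB1B2.

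LHB1B2 to PSAN was 3.06 to 4.37 on psaf arrays and 3.24 to 4.50 on WT arrays, with a difference of -0.02 ± 0.22 log2 (SE, limma adjusted p = 0.964). The 95% interval of -0.51 to 0.47 leaves room for a change of either sign. Between the photosystem II genes, PSBY to PSBW differed by -0.17 ± 0.17 log2 (adjusted p = 0.382), where 73.2% of all probes passed relative to PSBW. That sign turned after quantile normalisation (0.311) and cyclic loess (0.305).

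Ratios with PSB27 depended on WT arrays 1 and 2. With all arrays, PSB27 to PSBW differed by -0.34 ± 0.58 log2 (SE, limma adjusted p = 0.621) and PSB27 to PSBY by -0.17 ± 0.66 (adjusted p = 0.84), where 58.7% of all probes passed relative to PSBY. Without WT arrays 1 and 2 these were -1.11 (adjusted p = 0.000775) and -1.04 (adjusted p = 0.00331), both lower in psaf. In those fits the median probe was itself at -0.87 relative to PSBW and -0.796 relative to PSBY, and 77.3% and 73.7% of all probes passed, so the calls do not set PSB27 apart from other probes. Without these arrays PSB27 differed by -0.493 against PSAN (adjusted p = 0.312) and by -0.574 against LHB1B2 (adjusted p = 0.0749).

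**Figure D5:**
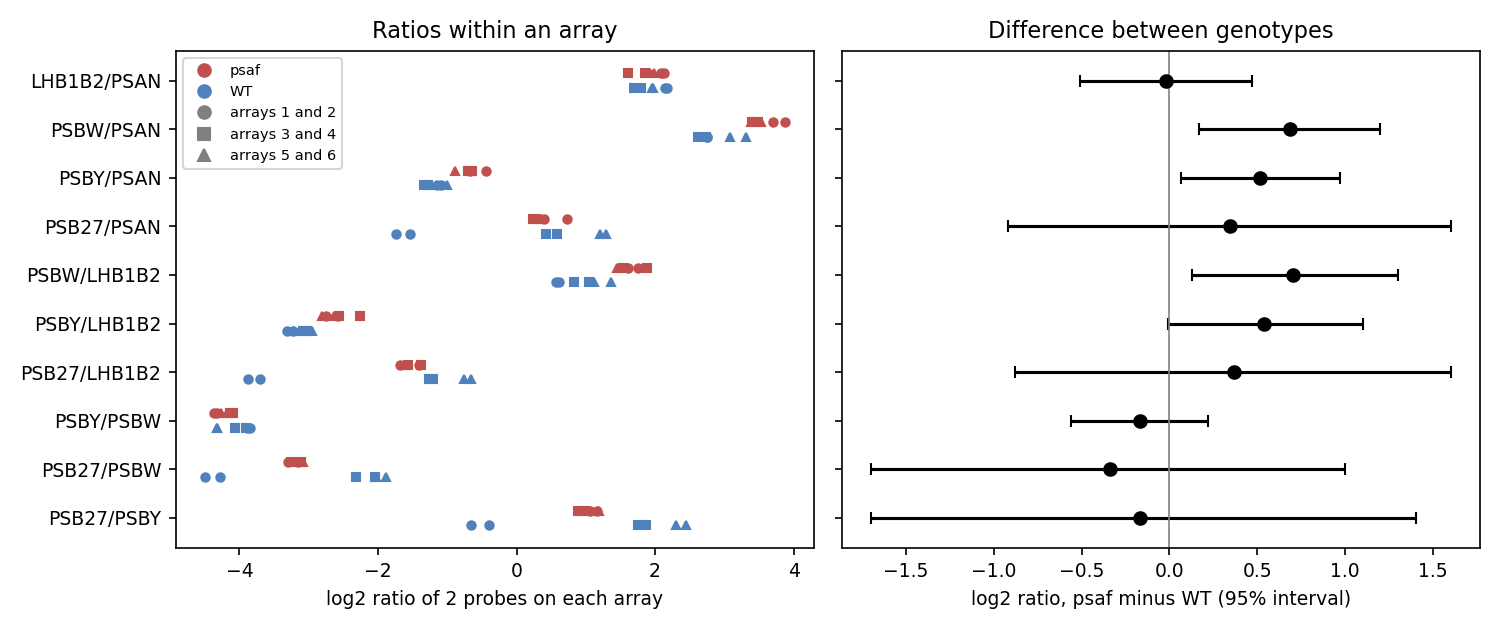
Left, log2 ratio of 2 probes on each psaf and WT array for the 10 ratios, with symbols for the close pairs. Right, the difference psaf minus WT (log2) with its 95% interval from limma over 3 pair means per genotype. The ratios of PSBW and PSBY to PSAN and LHB1B2 do not overlap between genotypes, and the intervals with PSB27 are the widest.

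Few other genes of these complexes could be read. Of 12 photosystem I genes listed 1 was tested, PSAN, of 16 photosystem II genes 3 were tested, and of 20 antenna genes 1 was tested, which are the 5 genes above. Of 14 genes of electron transport and ATP synthase, and of 12 markers of non-green tissue and senescence, 0 were on tested probes with 1 gene. One gene therefore stands for photosystem I and one for the antenna, and a shift of 1 probe cannot be told apart from a shift of its complex.

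The 5 genes did not vary as a block. Over the 12 arrays, which are 6 close pairs and share their scaling, Pearson's r between log2 intensities was 0.78 for PSBW and PSBY and 0.70 for PSAN and LHB1B2. For deviations from the genotype mean it was -0.12 between PSBW and PSBY. It was 0.65 between PSAN and LHB1B2, 0.70 between PSAN and PSBY and 0.75 between LHB1B2 and PSBY. PSB27 ran opposite to PSBY, at -0.91, and to LHB1B2, at -0.76, and WT arrays 1 and 2 were low for PSB27 and high for those genes.

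Among 647 other probes with 1 gene measured on all 12 arrays, those whose log2 intensities ran most like each gene were named, by Pearson's r. For PSBW they were AT5G46560 (0.973) and AT1G13990 (0.951). AT5G46560 was at 2.80 ± 0.149 in psaf and 1.76 ± 0.0522 in WT (SD, n = 3), and AT1G13990 at 2.86 ± 0.0593 in psaf and 2.17 ± 0.0582 in WT. Since they were chosen for running like PSBW over these arrays, a genotype difference in them follows from the choice. Their calls in the main fit (limma adjusted p = 0.00486 and 0.02) are therefore not separate evidence. For PSBY they were AT4G31470 (0.939) and AT3G13150 (0.933). For LHB1B2 they were AT2G47830 (0.934) and AT4G03150 (0.897), both highest on WT arrays 1 and 2, with pair means of 1.32 and 0.427. For PSB27 they were AT2G25870 (0.979) and AT2G41120 (0.977), both lowest on WT arrays 1 and 2, with pair means of 0.411 and 0.254. The AT2G41120 probe, at an offset of -12 from PSBY, itself lay in a low run on those arrays. The tested probes at offsets of -13 to -9 from PSBY deviated there by -1.72 to -0.866 log2, and AT2G41120 by -1.17 and -1.21. The part of low runs in its likeness to PSB27 was not tested. For PSAN they were AT3G09850 (0.857) and AT5G53620 (0.737). Each r is over 12 arrays in 6 close pairs, and is the highest of many.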

How the data were processed

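The authors' deposited table gives 1 linear intensity per probe and array; per the labels it comes from total RNA on one-channel arrays. The sources used here give no scanning, background or scaling method. Intensities of 0 were treated as not measured. Log2 values of each close pair were averaged, and probes with at least 2 measured pair means per genotype were kept (3277 of 3439). The test was limma 3.58.1, run in R 4.3.3 (lmFit, eBayes, genotype as the only term, two-sided, Benjamini-Hochberg over all tested probes, threshold 0.05). For ratios, the log2 value of 1 gene (PSAN, LHB1B2, PSBW or PSBY) was subtracted from every probe on each array before the same fit, so that gene's error enters every difference. The neighbour correction subtracts, per array, how far the 4 probes numbered nearest deviate from their genotype's median (median of the 4). It therefore acts on spread within each genotype and is not made to remove a shift between genotypes. The fits were tested on simulated data with normal noise, independent between probes and correlated within close pairs. Those data held no low runs and no genotype shift that depends on brightness, so that test does not cover either. Gene names come from the platform annotation and a RefSeq table of TAIR10.1; 870 probes with several genes and 1877 with none were not named. No build is named in the sources, so coordinates are not reported. The rule for named genes took the 5 genes, tested members of 5 gene lists, and for each gene the 2 probes with 1 gene of highest correlation. Genes, lists and tests were chosen with earlier results of these data known. Array number 1 to 6 was not taken to pair genotypes. Precision is limited by the number of arrays.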

Additional observations from a re-analysis of the deposited data

How the results depend on the processing

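Of 29 alternatives 6 change only the variance model or the probes tested and leave each gene's difference as it is; under the other 23 PSBW and PSBY stayed higher in psaf, at 0.147 to 0.889 and 0.28 to 0.72 log2. PSBW missed the threshold under quantile normalisation (0.169), cyclic loess (0.147) and the neighbour correction (0.27). PSBY passed at 0.369 with 12 arrays not averaged, with the close pair as a random block, with the replicate block and with a trended robust variance, and also after median centring (0.72), cyclic loess (0.453), an offset of 0.106 (0.347) and the neighbour correction (0.378). The share of all probes higher in psaf was 6.9% with the random block, 12.1% with the replicate block and 5.22% with the trended variance. It was 5.19% with the offset and 8.79% with the neighbour correction. Over the 29 alternatives the limma adjusted p ran from 1.51e-05 to 0.367 for PSBW, 0.00186 to 0.169 for PSBY, 0.204 to 0.797 for PSAN, 0.081 to 0.971 for LHB1B2 and 0.0355 to 0.964 for PSB27. Median centring turned PSAN to 0.205 and LHB1B2 to 0.185, and the neighbour correction turned PSB27 to -0.392 and its ratio to PSAN to -0.229. The ratio PSBY to PSBW turned to 0.311 (quantile), 0.305 (cyclic loess) and 0.108 (neighbour correction). Of the 10 ratios, 4 passed over 12 arrays and with the replicate block, 1 with the random block and 3 with quantile normalisation. Cyclic loess, the neighbour correction and the trended variance gave 2 each. The cause was not tested. Relative to PSAN and LHB1B2, 37.1% and 29% of all probes passed over 12 arrays, and 13.4% and 5.16% with the random block. For the other settings in this list no such share was computed, so their counts cannot be set against all probes.

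The count of 1264 probes past the threshold was 1993 over 12 arrays, 2151 with the replicate block and 1896 with the neighbour correction. It was 701 with quantile normalisation, 756 with median centring and 760 with cyclic loess. Without the dimmest 25% of probes, and with probes measured on all arrays, no call for the 5 genes changed. Leaving out single arrays or close pairs gave 709 to 1276 probes, the fewest without psaf arrays 5 and 6 (709) and psaf arrays 3 and 4 (786). It gave -0.265 (without WT arrays 5 and 6) to -0.0621 (without psaf arrays 1 and 2) for PSAN, -0.281 to 0.00853 for LHB1B2, 0.28 to 0.475 for PSBY and -0.565 to 0.685 for PSB27, with PSBY past the threshold without WT array 2 (0.391) or WT arrays 1 and 2 (0.475). For ratios it gave -0.125 to 0.0805 (LHB1B2 to PSAN), -0.493 to 0.95 (PSB27 to PSAN), -0.574 to 0.966 (PSB27 to LHB1B2), -1.11 to 0.105 (PSB27 to PSBW), -1.04 to 0.405 (PSB27 to PSBY), -0.301 to -0.0734 (PSBY to PSBW), and 0 to 2 ratios past the threshold. The replicate block is not a pairing given by the design: deviations of same-numbered psaf and WT arrays correlated at 0.022 to 0.24, above 0.1 for 4 of 6 numbers.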
